A study of Mus musculus with 8 samples.

Results

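The 3 genes Zfpm1, Cbfa2t3 and Lyl1 of mouse chromosome 8 that encode partners of the blood factors GATA1 and TAL1 were examined for open chromatin. Their peaks were all those overlapping a window around each gene (mm9, chr8:124795000-124870000 for Zfpm1, chr8:125145000-125235000 for Cbfa2t3 and chr8:87220000-87235000 for Lyl1), with no use of measured values. This gave 48 of the 134473 peaks of the study, 27 at Zfpm1, 17 at Cbfa2t3 and 4 at Lyl1. Accessibility was measured by bulk ATAC-seq, in which the Tn5 transposase cuts open DNA, in MPP2 cells sorted from bone marrow of C57BL/6 mice aged 8 to 12 weeks. MPP2 cells are multipotent progenitors that lean to the megakaryocyte and red cell fates. The gate was LSK, which marks stem and progenitor cells, with Flt3-, CD150+ and CD48+, and the groups were Vwf+Gata1+ cells and Vwf-Gata1+ cells, with 4 libraries of 500 cells each. Both groups were positive for Gata1, so the comparison is between cells with and without Vwf, the gene of von Willebrand factor, carried by platelets, megakaryocytes and endothelium. The labels used here give neither how Vwf and Gata1 were read in the sort nor whether replicates came from separate mice, so a p-value here speaks of the spread between libraries only. Loci of marker genes of the gate were not analysed here.

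GATA1 and TAL1 act in large complexes on DNA, in which TAL1 binds E-boxes (CANNTG) with E proteins, GATA1 binds GATA sites, and LMO2 and LDB1 bridge them. Zfpm1 encodes FOG1, a zinc finger protein that does not need to touch DNA itself and works by binding GATA factors; without it mice make neither megakaryocytes nor mature red cells. Cbfa2t3 encodes ETO2 (also MTG16), a corepressor of the MTG family that joins the TAL1 complex through E proteins and holds back late erythroid and megakaryocytic genes in progenitors. Lyl1 encodes a basic helix-loop-helix factor that is the closest relative of TAL1 and shares part of its work in stem and progenitor cells.

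The promoters are shown because the strongest peaks of Zfpm1 and Lyl1 spanned the starts of these genes. RefSeq promoters on GRCm38.p6, another build than that of the peaks, were matched by symbol and gave 4 promoters for the 3 genes, each of 250 bases before and 50 after the start. Capitals mark E-boxes (CANNTG) and the ETS core (GGAA on either strand).
Zfpm1 (chr8:122281891-122282190, plus strand): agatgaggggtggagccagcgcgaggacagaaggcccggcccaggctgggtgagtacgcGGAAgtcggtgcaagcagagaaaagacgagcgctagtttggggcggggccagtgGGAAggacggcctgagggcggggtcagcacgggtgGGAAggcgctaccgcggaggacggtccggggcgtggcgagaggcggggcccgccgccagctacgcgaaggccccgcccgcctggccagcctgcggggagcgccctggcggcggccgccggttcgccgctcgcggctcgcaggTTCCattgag
Cbfa2t3, upstream start (chr8:122699060-122699359, minus strand): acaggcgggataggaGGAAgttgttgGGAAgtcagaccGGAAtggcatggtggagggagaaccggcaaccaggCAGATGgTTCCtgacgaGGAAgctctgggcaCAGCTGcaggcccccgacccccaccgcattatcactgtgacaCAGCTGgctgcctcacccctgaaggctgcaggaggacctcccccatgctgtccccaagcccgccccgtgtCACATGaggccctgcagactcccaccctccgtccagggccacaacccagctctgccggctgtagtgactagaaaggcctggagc
Cbfa2t3, downstream start (chr8:122678126-122678425, minus strand): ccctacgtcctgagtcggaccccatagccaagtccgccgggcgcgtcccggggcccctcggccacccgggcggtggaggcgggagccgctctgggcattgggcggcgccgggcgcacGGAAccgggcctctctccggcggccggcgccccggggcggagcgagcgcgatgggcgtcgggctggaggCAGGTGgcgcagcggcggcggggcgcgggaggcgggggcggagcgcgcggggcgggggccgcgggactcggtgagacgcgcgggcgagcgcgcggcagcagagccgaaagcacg
Lyl1 (chr8:84701207-84701506, plus strand): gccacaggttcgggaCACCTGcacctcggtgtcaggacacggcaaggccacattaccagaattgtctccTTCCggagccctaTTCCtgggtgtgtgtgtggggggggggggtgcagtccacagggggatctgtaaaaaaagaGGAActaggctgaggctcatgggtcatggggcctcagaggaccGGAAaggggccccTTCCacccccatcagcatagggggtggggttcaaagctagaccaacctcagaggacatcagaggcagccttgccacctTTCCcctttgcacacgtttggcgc

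The Zfpm1 promoter held 37 CpG dinucleotides and 73.7% G or C, with fewer CpG in 94.4% of the 32851 promoters of the table. The downstream Cbfa2t3 promoter was richer still, with 53 CpG and 81.7% G or C, while the upstream one held 10 CpG and the Lyl1 promoter 7, which is the median of the table. The letters AGATAA, which GATA factors bind, occurred on either strand in 0 of the 4, as against 11.2% of all promoters. Other letters around GATA were not counted here, so this does not show that GATA sites were absent. The upstream Cbfa2t3 promoter, for example, reads TTATCA, which is TGATAA on the other strand. An E-box was present in 3 of the 4 and in 72.3% of all promoters. The upstream Cbfa2t3 promoter had 4 E-boxes, of which 2 read CAGCTG and 1 CAGATG. It also had the only match to CTG followed after 8 or 9 bases by GATA, on either strand, a spacing held by 4.69% of all promoters. The ETS core occurred 6 times at Lyl1, 5 times in the upstream Cbfa2t3 promoter, 4 times at Zfpm1 and 1 time in the downstream Cbfa2t3 promoter, and in 95.98% of all promoters. TGTGGT, a RUNX site, was in 0 of the 4 and in 16.8% of all. The KLF cores CACCC and CCACC, which share bases where they overlap, were each in all 4, against 57.5% and 60.4% of all promoters. These matches are a description of these windows only.

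Zfpm1 lay in a very dense stretch of open chromatin. Its 75 kb window held 27 peaks, which covered 19.1% of its length, while windows of this length tiled over the genome held a median of 5. Of 22609 such windows with a peak, 2 held 27 or more (0.00885%), and the tile that took most of the Zfpm1 peaks held 25. The tiles were not placed around genes, and of windows begun at every peak in turn 0.0558% held 27 or more. Cbfa2t3 had 17 peaks in 90 kb, a number reached by 6.22% of 19651 tiles of that length. Lyl1 had 4 in 15 kb, reached by 12.4% of 65992 tiles. As much summed signal was held by 0.0177% of tiles for Zfpm1, 1.72% for Cbfa2t3 and 0.0727% for Lyl1. For Cbfa2t3 and Lyl1 these were fewer tiles than had as many peaks. All counts here describe the regions, and no test was made of them.

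All 48 peaks passed the filter on low counts, which 72.2% of all peaks passed. Signal, as CPM (counts scaled to library size, with TMM factors) averaged over 8 libraries was above the median of all peaks at 47 of the 48, and in the highest 10% at 14 (7 at Zfpm1, 4 at Cbfa2t3 and 3 at Lyl1). Peaks are numbered from low to high coordinate within each gene. By the approximate gene ends of 124806000 and 124861200, transcription running toward higher coordinates, Zfpm1 had 3 peaks upstream, 1 across the start, 18 inside the gene and 5 beyond its end. At Lyl1 (about 87225400 to 87228600, same direction) 1 peak lay upstream, 1 across the start, 1 inside and 1 beyond. Cbfa2t3 runs the other way from an end near 125149000. Its starts were not placed on mm9, so no peak was matched to either of its promoters. Exons, introns and untranslated regions were not assigned, since no mm9 annotation was used. In the RefSeq table Zfpm1 is overlapped by the noncoding Gm39269, Cbfa2t3 by the noncoding Gm10612, and Lyl1 by the span of Nfix, with Trmt1 as the next coding gene below it. A peak in these windows therefore need not serve the gene whose name it carries here.

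**Figure D1:**
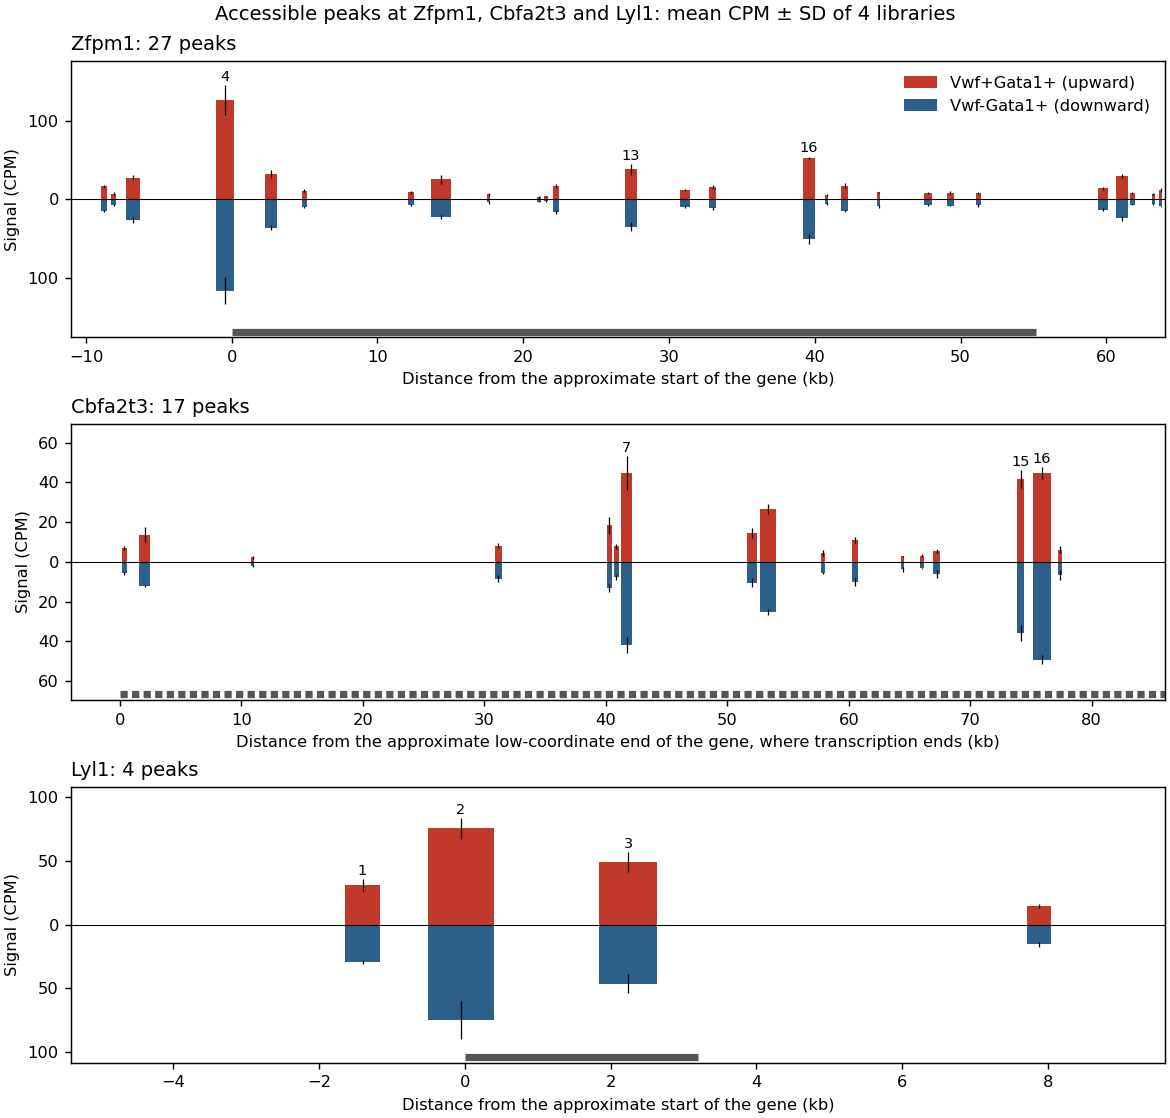
Mean CPM of each peak against distance in kb from the approximate start of Zfpm1 and Lyl1, or from the low-coordinate end of Cbfa2t3, with Vwf+Gata1+ cells drawn upward and Vwf-Gata1+ cells downward; black lines are SD (n = 4), grey bars the gene (dashed where its high end is not given), and numbers the 3 strongest peaks. The profiles of the groups mirror each other, with the tallest bar at the start of Zfpm1 (126 and 116 CPM).

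Libraries held 4628997 to 7753538 counts in Vwf+Gata1+ cells and 5447813 to 7670844 in Vwf-Gata1+ cells. The strongest 1% of all peaks held 10.8% of counts in replicate 1 of Vwf+Gata1+ cells and 11.5% to 12.0% in the other 3. They held 10.3% in replicate 1 of Vwf-Gata1+ cells and 11.2% to 12.0% in the other 3. Replicate 1 was thus the lowest of each group in this measure. Results are given also without both replicate 1 libraries, a choice made after seeing the data.

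Zfpm1, Cbfa2t3 and Lyl1 had no peak past an adjusted p of 0.05 between Vwf+Gata1+ and Vwf-Gata1+ cells (0 of 48 in edgeR's quasi-likelihood test, against 0.0144% of 97040 tested peaks; lowest adjusted p = 0.376). DESeq2 called 0 of 48 (0.0113% of all), limma-voom with quality weights 0 (0.00103% of all), and edgeR without both replicate 1 libraries 0 (0.0379% of all). With the replicate number as a block, edgeR called 1, peak 5 of Cbfa2t3, and 0.527% of all tested peaks. At an unadjusted p under 0.05 edgeR had 8 of 48 peaks, or 16.7%, beside 6.72% of all tested peaks. Without replicate 3 of Vwf+Gata1+ cells it had 5. With the replicate number as a block it had 10, of which 1, peak 5 of Zfpm1, was lower in Vwf+Gata1+ cells. The shares of all tested peaks at this level were not computed for these other fits. In the main fit all 8 were higher in Vwf+Gata1+ cells, beside 3.52% of tested peaks that were higher at this level. DESeq2 had 5 at an unadjusted p under 0.05 (3.47% of all) and limma-voom 8 (7.49% of all). Tested peaks were also split by mean CPM into strong, middle and weak classes of equal size, and 34 members were strong, 13 middle and 1 weak. Of the 34, 6 were among the 8 of the main fit, or 17.6% beside 7.17% of all strong peaks. Of the 13, 2 were, or 15.4% beside 7.11% of all middle peaks. Fewer cells with an open site and a less open site in each cell cannot be told apart in these bulk libraries.

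The log2 fold changes (Vwf+Gata1+ minus Vwf-Gata1+) ran from -0.39 to 0.58 with a median of 0.07, beside a median of 0.0039 over all tested peaks. The median of the members was 0.13 without replicate 1 of Vwf+Gata1+ cells, 0.13 without replicate 3 of Vwf-Gata1+ cells, 0.046 without replicate 3 of Vwf+Gata1+ cells and 0.046 with loess offsets. They were above 0 at 36 of 48 peaks (75.0%), beside 50.7% of all. Scaling by total count moved this to 31 of 48, beside 47.1% of all. The lean lay with the strong peaks: 30 of the 34 strong members were above 0 (88.2%, beside 55.0% of all strong peaks), and 5 of the 13 middle ones (38.5%, beside 48.7%). Peaks of 1 gene share the same 8 libraries and are not independent. The 95% intervals lay within 2-fold in either direction at 46 of 48 peaks (85.6% of all tested peaks) and within 1.5-fold at 36 (41.5% of all). Interval width followed signal, with a median standard error (SE) of 0.135 over all strong peaks and 0.331 over all weak ones. The members were mostly strong, so these shares compare peaks of unlike signal. The exceptions to the 2-fold bound were peaks 9 and 11 of Zfpm1. Groups did not overlap in CPM at 2 of 48 peaks, peak 11 of Zfpm1 and peak 5 of Cbfa2t3, beside 3.88% of all tested peaks. With CPM scaled by total count both of these overlapped, and the 1 peak of 48 without overlap was peak 14 of Zfpm1, beside 3.93% of all.

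**Figure D2:**
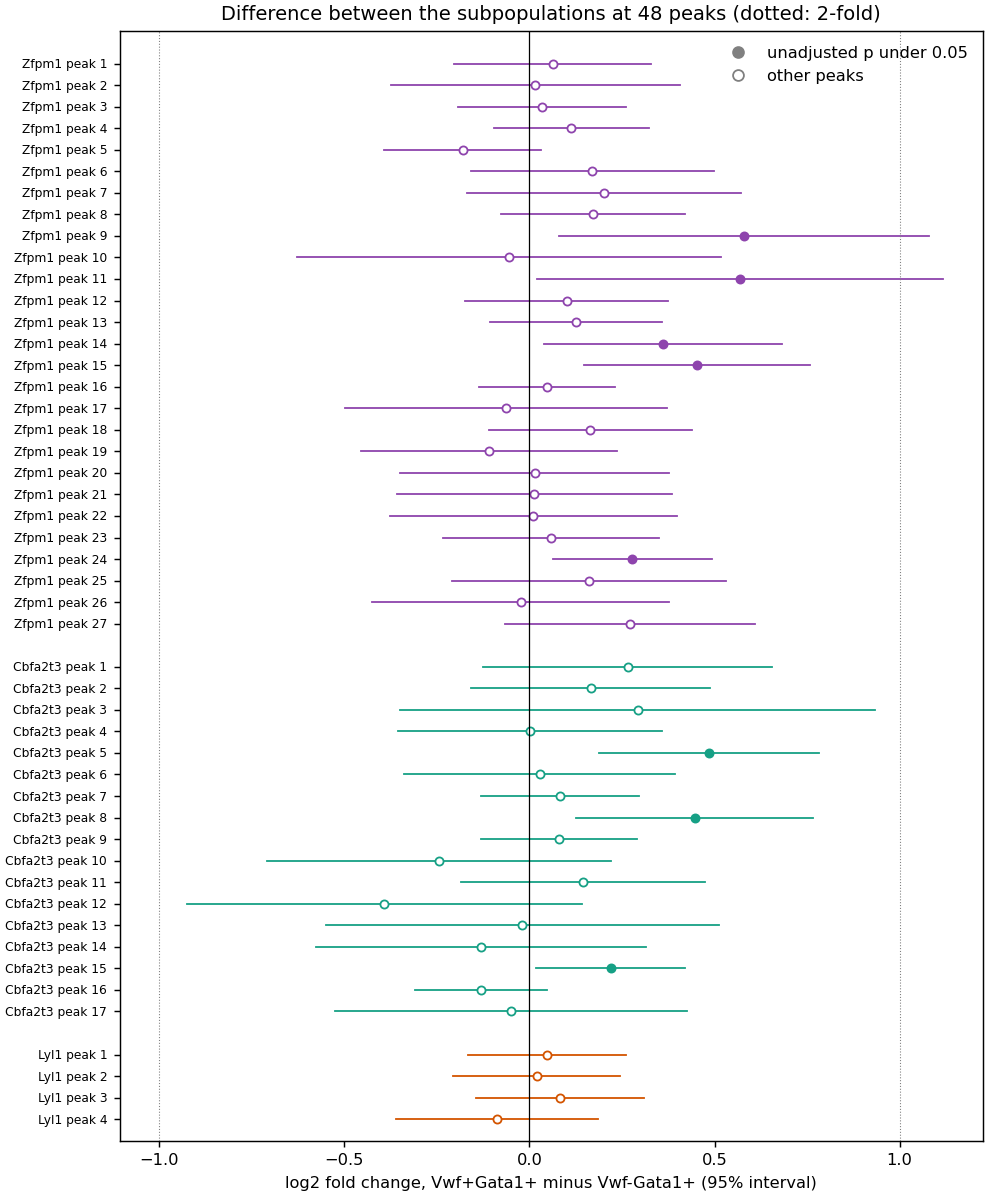
Log2 fold change of each of the 48 peaks (Vwf+Gata1+ minus Vwf-Gata1+) with its 95% interval, ordered along each gene; filled points have an unadjusted p under 0.05. All 8 filled points lie right of 0, between 0.22 and 0.58, and those of Lyl1 are open with intervals across 0.

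**Figure D3:**
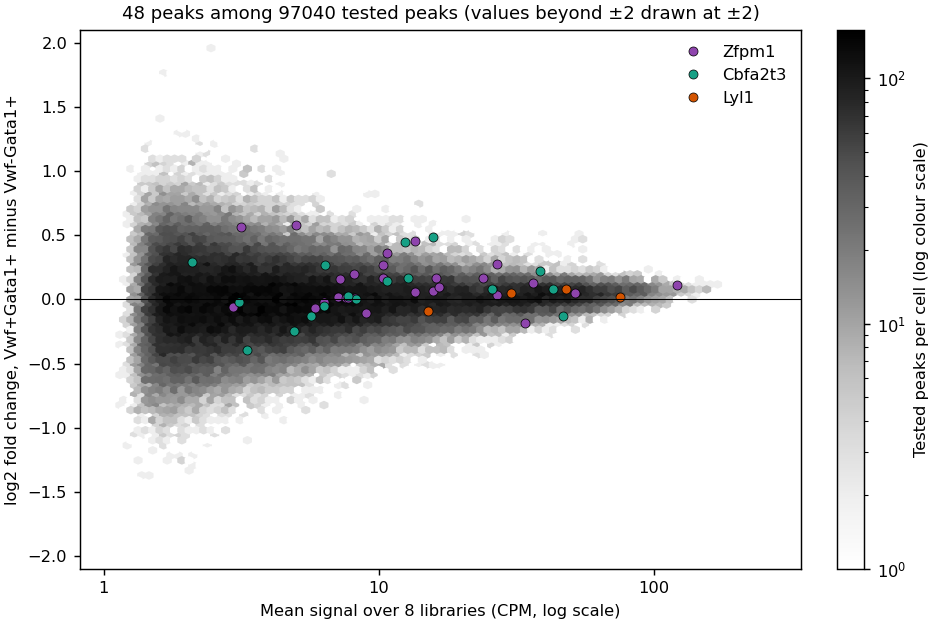
Log2 fold change against mean CPM (log scale) for all 97040 tested peaks (grey cells, darker for more peaks) and the 48 members (coloured by gene). The members sit inside the cloud of all peaks, toward its strong side.

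Zfpm1 had its main open site at its start, where Vwf+Gata1+ and Vwf-Gata1+ cells did not differ beyond the spread of the libraries. The start peak, peak 4 (chr8:124804929-124806160), had 99.2, 141, 137 and 127 CPM in replicates 1 to 4 of Vwf+Gata1+ cells and 95.9, 118, 138 and 114 CPM in those of Vwf-Gata1+ cells. It was stronger than 99.9% of all peaks and held 23.9% ± 2.70 of the counts of the locus in the Vwf+Gata1+ libraries, against 23.8% ± 2.07 in the Vwf-Gata1+ libraries (SD, n = 4 each). The groups overlapped, replicate 1 was low in both, and the log2 fold change was 0.11 ± 0.10 (SE; edgeR adjusted p = 0.898). Leaving out 1 library gave 0.030 (without replicate 1 of Vwf-Gata1+ cells) to 0.22 (without replicate 1 of Vwf+Gata1+ cells).

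Inside the gene the strongest sites were peak 16, about 39.6 kb from the start, and peak 13, at 27.4 kb. Peak 16 (chr8:124845174-124845987) had 50.04, 54.4, 52.9 and 52.2 CPM in the Vwf+Gata1+ libraries, against 44.3, 50.1, 58.7 and 50.2 CPM in the Vwf-Gata1+ libraries. The Vwf+Gata1+ libraries lay inside the range of the others, with a log2 fold change of 0.05 ± 0.09 (SE) and a fold of 1.03 (95% interval 0.910 to 1.17). At peak 13 (chr8:124832964-124833811) the values were 31.9, 35.3, 48.1 and 37.1 CPM in the Vwf+Gata1+ libraries, against 31.0, 30.4, 42.9 and 34.7 CPM in the Vwf-Gata1+ libraries. Replicate 3 was the highest of each group there, and the log2 fold change was 0.13 ± 0.11 (SE; edgeR adjusted p = 0.899).

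Between these sites lay peaks 14 and 15, 31.1 and 33.0 kb from the start, where the unadjusted p-values were low. Peak 15 (chr8:124838776-124839217) had 17.0, 12.0, 18.3 and 15.4 CPM in the Vwf+Gata1+ libraries, against 12.9, 9.07, 12.9 and 10.9 CPM in the Vwf-Gata1+ libraries. Only replicate 2 of Vwf+Gata1+ cells reached into the range of Vwf-Gata1+ cells. The fold was 1.37 (95% interval 1.11 to 1.69), with an unadjusted p of 0.00470 and an edgeR adjusted p of 0.465. Peak 14 (chr8:124836782-124837411) had 10.8, 12.0, 11.2 and 13.8 CPM in the Vwf+Gata1+ libraries, against 7.84, 10.3, 11.1 and 8.46 CPM in the Vwf-Gata1+ libraries. Its groups also overlapped in part, and its log2 fold change was 0.36 ± 0.16 (SE; edgeR adjusted p = 0.698).

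The largest log2 fold changes of the locus were at narrow peaks of the middle class. Peak 9 (chr8:124823504-124823744, 241 bp) had 5.004, 5.44, 8.48 and 5.61 CPM in the Vwf+Gata1+ libraries, against 5.49, 3.08, 1.95 and 4.96 CPM in the Vwf-Gata1+ libraries, from 10 to 42 counts a library. Its log2 fold change was 0.58 ± 0.25 (SE; edgeR adjusted p = 0.675), and 0.89 without both replicate 1 libraries. Peak 11 (chr8:124827400-124827676, 277 bp) had 3.42, 3.38, 4.81 and 3.74 CPM in the Vwf+Gata1+ libraries, against 2.88, 2.31, 1.36 and 3.36 CPM in the Vwf-Gata1+ libraries. These groups did not overlap, by a margin of 0.02 CPM between 3.38 and 3.36, on 7 to 26 counts a library, and the edgeR adjusted p was 0.730. At both, replicate 3 was the highest of Vwf+Gata1+ cells and the lowest of Vwf-Gata1+ cells.

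Beyond the end of Zfpm1, 61.1 kb from its start, peak 24 (chr8:124866688-124867511) had 29.9, 29.1, 32.1 and 27.0 CPM in the Vwf+Gata1+ libraries, against 23.6, 22.8, 28.7 and 22.5 CPM in the Vwf-Gata1+ libraries. The groups overlapped through replicate 3 of Vwf-Gata1+ cells, and the log2 fold change was 0.28 ± 0.11 (SE; edgeR adjusted p = 0.585). The lowest value of the locus was at peak 5, 2.7 kb inside the gene (chr8:124808304-124809121). It had 25.6, 36.4, 31.4 and 34.6 CPM in the Vwf+Gata1+ libraries, against 32.1, 39.0, 36.5 and 36.9 CPM in the Vwf-Gata1+ libraries. The log2 fold change there was -0.18 ± 0.10 (SE), with an edgeR adjusted p of 0.798. It was -0.074 without replicate 1 of Vwf+Gata1+ cells. By position, the median log2 fold change was 0.03 at the 3 peaks upstream, 0.11 at the 18 inside the gene and 0.16 at the 5 beyond it. The other 18 peaks of the locus had log2 fold changes within the range of those named and unadjusted p-values of 0.05 or more.

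Cbfa2t3 was open in clusters. Of its 3 strongest peaks, 15 and 16 lay toward the high end of the window and 7 near its middle. A gap of 19.8 kb without a peak, the longest of the 3 regions, separated the 3 peaks near its low end from the other 14. The 3 strongest peaks, numbers 16, 7 and 15, held 49.8% ± 2.14 of the counts of the locus in the Vwf+Gata1+ libraries, against 51.5% ± 2.69 in the Vwf-Gata1+ libraries (SD, n = 4 each).

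Peak 5 (chr8:125189084-125189511) had the lowest p of all 48. It had 17.6, 15.01, 24.8 and 16.5 CPM in replicates 1 to 4 of Vwf+Gata1+ cells and 14.5, 10.9, 14.8 and 12.0 CPM in those of Vwf-Gata1+ cells. The groups did not overlap, but by total count replicate 2 of Vwf+Gata1+ cells, at 14.2 CPM, lay below replicate 1 of Vwf-Gata1+ cells, at 14.5 CPM. Replicate 3 stood highest in Vwf+Gata1+ cells. The log2 fold change was 0.49 ± 0.15 (SE), a fold of 1.40 (95% interval 1.14 to 1.72), with an unadjusted p of 0.00204 and an edgeR adjusted p of 0.376. Its neighbours had smaller log2 fold changes. Peak 6, which begins 128 bp further on, had a log2 fold change of 0.03 ± 0.18 (SE). Peak 7 (chr8:125190230-125191175) had 36.1, 41.3, 56.1 and 44.9 CPM in the Vwf+Gata1+ libraries, against 38.0, 38.8, 45.0 and 45.2 CPM in the Vwf-Gata1+ libraries. The log2 fold change there was 0.08 ± 0.11 (SE), with an edgeR adjusted p of 0.939. Whether peaks 5 and 7 changed by different amounts was not tested; the count of peak 5 over that of peak 7 was 0.416 ± 0.0604 in the Vwf+Gata1+ libraries, against 0.314 ± 0.0525 in the Vwf-Gata1+ libraries (SD, n = 4 each), with overlapping libraries.

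Peak 8 (chr8:125200618-125201467) had 13.4, 12.2, 18.3 and 14.2 CPM in the Vwf+Gata1+ libraries, against 13.5, 10.6, 9.17 and 8.61 CPM in the Vwf-Gata1+ libraries. Only replicate 1 of Vwf-Gata1+ cells lay among the Vwf+Gata1+ libraries. The log2 fold change was 0.45 ± 0.16 (SE), with an unadjusted p of 0.00772 and an edgeR adjusted p of 0.525. The wider peak 9, which follows it, averaged 26.6 CPM in the Vwf+Gata1+ libraries, against 25.2 CPM in the Vwf-Gata1+ libraries (log2 fold change 0.08).

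At the high end of the region peaks 15 and 16 leaned apart. Peak 15 (chr8:125222857-125223455) had 36.0, 41.3, 46.3 and 43.1 CPM in the Vwf+Gata1+ libraries, against 31.8, 32.8, 39.8 and 38.5 CPM in the Vwf-Gata1+ libraries. The groups overlapped through replicate 1 of Vwf+Gata1+ cells. The log2 fold change there was 0.22 ± 0.10 (SE), with an edgeR adjusted p of 0.711. Peak 16 (chr8:125224149-125225613), the widest of the 48 at 1465 bp, had 47.8, 43.9, 41.0 and 46.0 CPM in the Vwf+Gata1+ libraries, against 51.9, 47.7, 49.9 and 47.1 CPM in the Vwf-Gata1+ libraries. Its log2 fold change was -0.13 ± 0.09 (SE; edgeR adjusted p = 0.836), and the groups met only between 47.1 and 47.8 CPM. The count of peak 15 over that of peak 16 was 0.940 ± 0.154 in the Vwf+Gata1+ libraries, against 0.728 ± 0.0963 in the Vwf-Gata1+ libraries (SD, n = 4 each), and the libraries overlapped.

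As a share of the locus, which does not depend on scaling between libraries, peak 16 held 17.1% ± 1.75 in the Vwf+Gata1+ libraries, against 20.0% ± 0.712 in the Vwf-Gata1+ libraries. Peak 5 held 7.01% ± 1.38 in the Vwf+Gata1+ libraries, against 5.29% ± 0.503 in the Vwf-Gata1+ libraries (SD, n = 4 each). These were the only 2 of the 48 shares at which the groups did not overlap. No matching rate was computed for shares outside these loci. The genome-wide rate of 3.88% is for separation in CPM, a different measure. It cannot tell whether 2 of 48 shares is more than usual, so these peaks are not singled out. Shares of a locus sum to a fixed total, so they are not independent of each other, and no test was made of them. The lowest log2 fold change of all 48 was at peak 12 of Cbfa2t3, of the middle class (chr8:125213328-125213558). It had 3.03, 3.19, 2.52 and 2.59 CPM in the Vwf+Gata1+ libraries, against 3.40, 2.46, 5.07 and 4.23 CPM in the Vwf-Gata1+ libraries. The spread was wide in Vwf-Gata1+ cells, and the log2 fold change was -0.39 ± 0.26 (SE; edgeR adjusted p = 0.837).

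Lyl1 was compact and strongly open, and the groups overlapped at each of its 4 peaks. The start peak, peak 2 (chr8:87224898-87225796), had 65.8, 80.5, 84.3 and 73.0 CPM in the Vwf+Gata1+ libraries, against 55.9, 75.3, 92.2 and 76.2 CPM in the Vwf-Gata1+ libraries. It was stronger than 99.3% of all peaks. The Vwf-Gata1+ libraries spanned a wider range that held all of the Vwf+Gata1+ libraries, and the log2 fold change was 0.02 ± 0.11 (SE), a fold of 1.01 (95% interval 0.868 to 1.19). Peak 3 (chr8:87227246-87228033), inside the gene, had 39.8, 54.6, 56.4 and 46.6 CPM in the Vwf+Gata1+ libraries, against 35.9, 48.4, 53.8 and 47.6 CPM in the Vwf-Gata1+ libraries. In both groups replicate 1 was the lowest and replicate 3 the highest, and the fold was 1.06 (95% interval 0.904 to 1.24).

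Upstream of Lyl1, toward Trmt1, peak 1 (chr8:87223756-87224233) had 31.1, 28.7, 37.6 and 26.0 CPM in the Vwf+Gata1+ libraries, against 31.6, 28.0, 29.8 and 28.8 CPM in the Vwf-Gata1+ libraries. Replicate 3 of Vwf+Gata1+ cells stood above the others, and the fold was 1.03 (95% interval 0.891 to 1.199). Peak 4 (chr8:87233106-87233444) had 13.7, 13.1, 16.5 and 15.1 CPM in Vwf+Gata1+ cells and 15.4, 14.4, 18.1 and 14.2 CPM in Vwf-Gata1+ libraries. These groups overlapped, with a fold of 0.941 (95% interval 0.778 to 1.14). The 4 edgeR adjusted p-values at Lyl1 ran from 0.943 to 0.990. Pooled over all peaks of a window, signal per kb of peak width was 67.3 CPM at Lyl1, 35.4 at Zfpm1 and 24.3 at Cbfa2t3. The windows differ in length and in number of peaks, so this order depends on how they were drawn. Among single peaks the highest was peak 4 of Zfpm1, at 98.4 CPM per kb, with 83.9 at peak 2 of Lyl1.

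Summed over all peaks of a locus, Zfpm1 had 482, 518, 580.3 and 522 CPM in replicates 1 to 4 of Vwf+Gata1+ cells and 457, 465, 546 and 483 CPM in those of Vwf-Gata1+ cells. The means, 526 ± 40.7 and 487 ± 40.2 CPM (SD, n = 4 each), differed by 7.83%, which is less than the spread within either group. Cbfa2t3 had 252, 261, 277 and 260.2 CPM in the Vwf+Gata1+ libraries, against 253, 231, 261 and 239 CPM in the Vwf-Gata1+ libraries. Its means were 263 ± 10.5 and 246 ± 13.4 CPM (SD, n = 4 each), a difference of 6.77% that is larger than either SD, with overlapping groups. Lyl1 had 150.4, 177, 195 and 161 CPM in the Vwf+Gata1+ libraries, against 139, 166, 194 and 167 CPM in the Vwf-Gata1+ libraries. Its means, 171 ± 19.4 and 167 ± 22.5 CPM (SD, n = 4 each), differed by 2.56%. No p is given for these sums, since each is a score over the members. The genes were chosen with earlier results known, and their peaks by position only.

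At each gene the sums ranged more widely within either group than the group means differed. Replicate 3 was the highest of its group at each of the 3 genes in both groups. Replicate 1 was the lowest at each, except at Cbfa2t3 in Vwf-Gata1+ cells, where replicate 2 was. The share of all counts in the strongest 1% of peaks followed this order only in part: it was lowest in replicate 1 of both groups and highest at 12.0% in replicate 2 of Vwf+Gata1+ cells and at 12.0% in replicate 3 of Vwf-Gata1+ cells. Replicate 3 was also the smallest library of its group by total count, at 4628997 with Vwf and 5447813 without. Replicate 1 was the largest, at 7753538 with Vwf and 7670844 without. Neither this share nor total count was tested for its part in the sums. Among the 34 strong members, replicate 3 was the highest library at 17 peaks in Vwf+Gata1+ cells (50%, beside 33.5% of all strong peaks) and at 23 in Vwf-Gata1+ cells (67.6%, beside 36.9%). Among the 13 middle members it was replicate 1, highest at 7 in Vwf+Gata1+ cells (53.8%, beside 27.2%) and at 8 in Vwf-Gata1+ cells (61.5%, beside 30.6%). Without both replicate 1 libraries the log2 ratios of the sums were 0.12 at Zfpm1, 0.13 at Cbfa2t3 and 0.015 at Lyl1, beside 0.11, 0.09 and 0.037 with all 8 libraries.

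**Figure D4:**
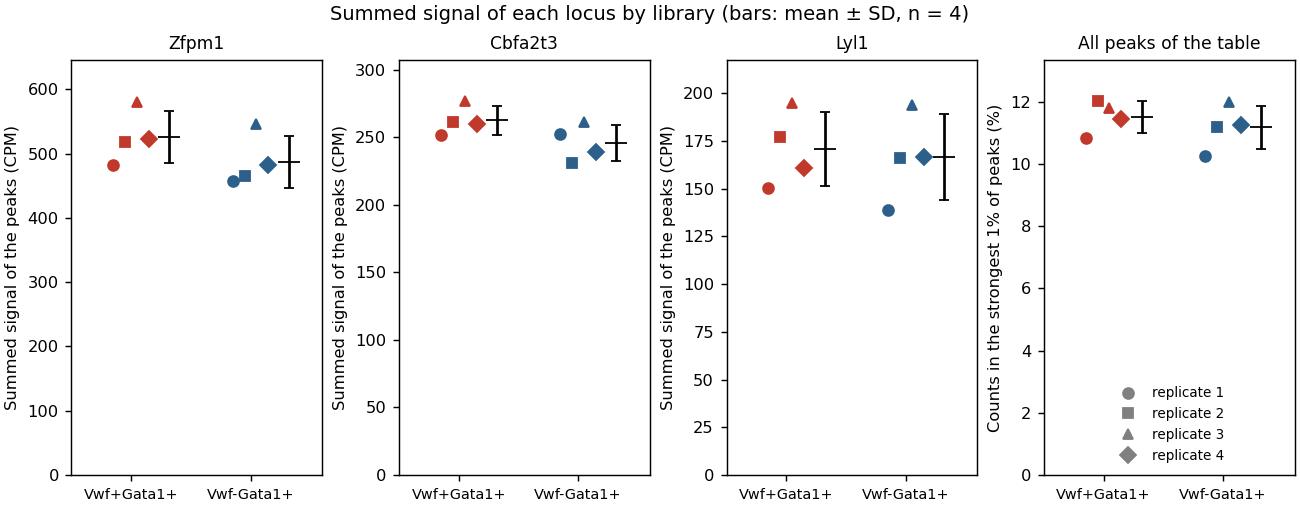
Summed CPM of each locus, and the share in percent of all counts in the strongest 1% of peaks, for each library (symbols mark the replicate) with mean ± SD (n = 4). Groups overlap in each panel, and the triangles of replicate 3 are the highest of their group at all 3 genes.

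**Figure D5:**
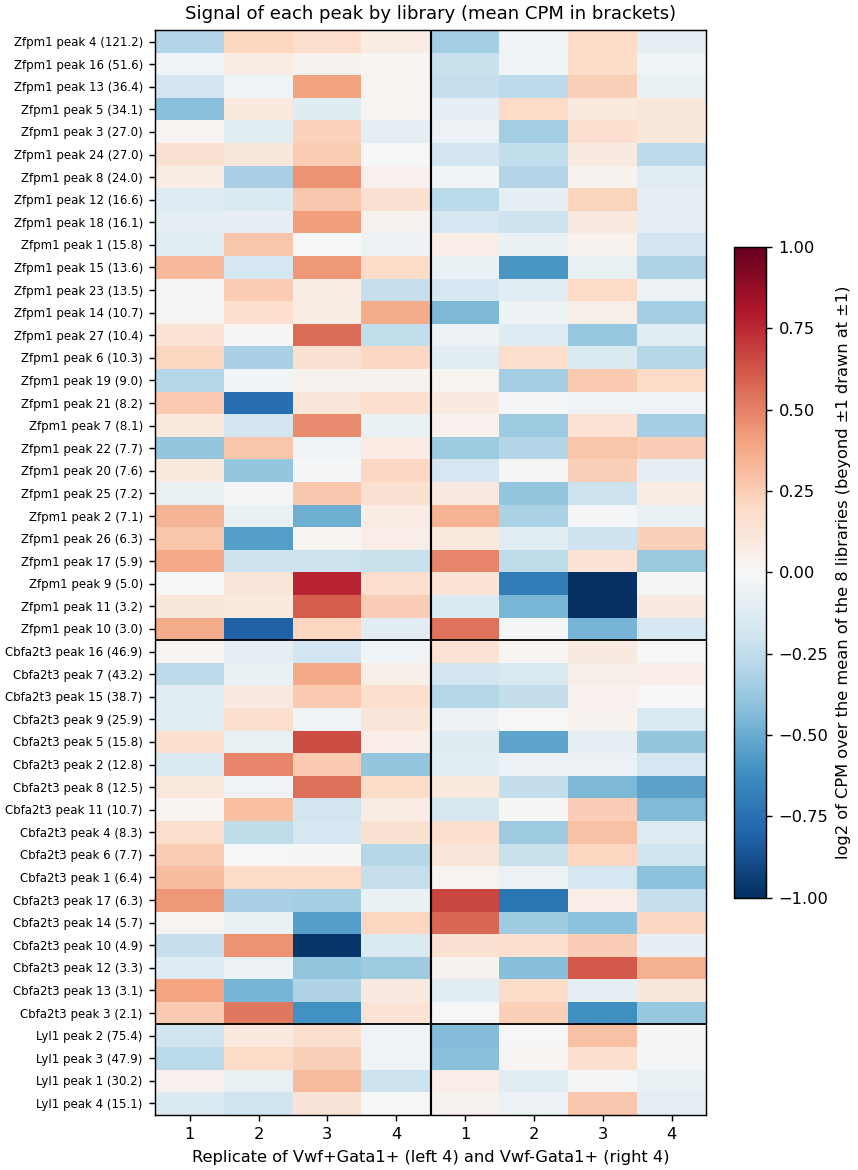
Log2 of the CPM of each of the 48 peaks in each library over its mean of the 8 libraries, peaks ordered by mean CPM within each gene, Vwf+Gata1+ libraries left and Vwf-Gata1+ libraries right. Red columns of replicate 3 run through the strong peaks of both groups, and replicate 1 is red at several peaks of the middle class.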

How the data were processed

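The authors deposited a table of raw counts per peak for 8 libraries, with 134473 peaks, and every column was used. Named in the submitters' processing notes are build mm9 and, with no role or order, MACS2, Bowtie2, Picard, SAMtools, FastQC and Trim Galore. Their versions, the handling of duplicates and cut sites, the merging of peaks, and the thing counted (reads or fragments) are not given in the sources used here. Positions are printed as in the table.

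Peaks were filtered with filterByExpr of edgeR (minimum count 10, minimum total 15), which kept 97040. Counts were scaled by TMM and tested over all kept peaks with edgeR's robust quasi-likelihood test. P-values were adjusted by Benjamini-Hochberg at 0.05. SE was obtained by dividing the size of the log2 fold change by the root of its F statistic. CPM scales counts to the total of kept peaks times the TMM factor. The test was also run on simulated data. Fits ran in R 4.3.3 with edgeR 4.0.16, and alternatives with DESeq2 1.42.0 and limma 3.58.1. Tables and plots were made in Python 3.11.15 with matplotlib 3.10.9.

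Named peaks are the 3 strongest of each gene, that nearest a known start, those with the extreme log2 fold changes, and those at an unadjusted p under 0.05. Peaks 6 and 9 of Cbfa2t3 were named after their values were seen. Strong peaks elsewhere most like a locus were ranked by Pearson r over libraries. The genes, lists and tests were chosen with earlier results of these data known. Peaks of other genes of the complex were not analysed, since no mm9 annotation was used.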

Additional observations from a re-analysis of the deposited data

How the results depend on the processing

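Of 342 log2 fold changes of the 19 named peaks under 18 other fits, 332 kept their direction and their side of the threshold, and no fit but the replicate block called a member. Over all 48 members, 28 kept their sign in all 18 fits and 20 changed it in at least 1, all 20 with a log2 fold change of 0.13 or less in size with all libraries. Leaving out 1 library gave -0.0124 to 0.122 at peak 16 of Zfpm1, -0.0339 to 0.179 at peak 7 of Cbfa2t3, and -0.0461 to 0.125, -0.0998 to 0.132 and -0.0280 to 0.180 at peaks 1, 2 and 3 of Lyl1. Peak 2 of Lyl1 was also at -0.0262 with loess offsets and at -0.0349 without both replicate 1 libraries. With the replicate number as a block, 1 member was higher and 0 lower: peak 5 of Cbfa2t3, with log2 fold change 0.48 and an edgeR adjusted p of 0.0368, while 0.527% of all tested peaks were called. Its adjusted p over the other fits ran up to 0.872 (DESeq2). The labels do not pair libraries by number. Same-numbered libraries had correlations of their deviations of 0.301, 0.163, 0.074 and 0.0103, and 5 of 8 libraries correlated best with their own number. Under total count scaling, groups did not overlap at 1 member instead of 2, and it was neither of those 2. By CPM per kb, 2 of the 3 strongest peaks of Cbfa2t3 stayed among its 3 strongest. Without 1 library the log2 ratio of the sums was 0.058 to 0.17 at Zfpm1, 0.066 to 0.12 at Cbfa2t3 and -0.041 to 0.12 at Lyl1. An adjusted p under 0.1, for which no share of all tested peaks was computed, and peaks within the gene ends only, gave 0 calls. The cause of these shifts was not tested. SE ran from 0.09 to 0.32 over the 48 peaks.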

Other observations

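Peaks elsewhere with a profile over the 8 libraries most like each summed locus were sought among 32313 strong peaks. The highest Pearson correlations were 0.987 for Zfpm1 (chr8:73986633-73989352), 0.985 for Cbfa2t3 (chr8:114456983-114457995) and 0.987 for Lyl1 (chr19:53464273-53465564). The Lyl1 peak had means of 77.3 CPM in the Vwf+Gata1+ libraries, against 74.8 CPM in the Vwf-Gata1+ libraries. All points share the same 8 libraries and their depth, and the best of so many peaks over 8 libraries is high by selection.

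The 2 tiles of 75 kb with at least as many peaks as the Zfpm1 window were chr7:19875001-19950000, with 27, and chr8:126075001-126150000, with 43. Both replicate 1 libraries were the highest of their groups at 7 of the 48 members (14.6%) and at 10.2% of all tested peaks. Of the 7, 5 were among the 13 middle members (38.5%, beside 11.45% of all middle peaks). The other 2, which include peak 16 of Cbfa2t3, were among the 34 strong members (5.88%, beside 8.77% of all strong peaks).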
